A study of Danio rerio with 3 samples.

Results

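The cytosolic ribosome of the zebrafish anal fin endothelium is described here through the mRNAs of its proteins. Rows were taken by name alone: names that begin with rpl or rps and a number, or with rplp and a number, together with rpsa, and without the ribosomal protein S6 kinase genes (11 names starting with rps6k). This gave 77 of the 25839 rows, 44 for proteins of the large subunit and 33 for proteins of the small subunit, and 74 of them had a UMI. The rule also took rpl7l1, whose name is that of an RPL7-like protein.

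Endothelial cells carrying the fli1a:dsRed reporter were sorted, 1 cell per well, from digested anal fins of immature fish (stage II-III) and sequenced by MARS-seq. That method tags every captured polyadenylated molecule once, near its 3′ end, with the code of its well and a unique molecular identifier (UMI). UMI counts therefore do not scale with transcript length. Levels of different genes can be set side by side per captured molecule, as far as capture and read assignment were alike, which was not tested. There is 1 group of samples, 3 plates of 384 wells, each with 80 fins named in the labels. Whether separate fish went into each plate is not in the labels. The p-values below set each difference between classes against residual spread over plates. In the first comparison edgeR took that spread wholly from all genes tested together, so a gene's own spread over plates did not enter. In the second comparison it was estimated partly from all genes tested. That spread may be technical. The comparisons set classes of wells of the same plate against each other. The dsRed signal follows fli1a regulatory sequence, and any other fin cell with that signal could also have been sorted.

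A ribosome carries each of its proteins in about equal number, and vertebrate cells co-ordinate their production. The mRNAs of ribosomal proteins and of most elongation factors start with a run of pyrimidines, the TOP motif, through which the mTOR pathway sets their translation. A few ribosomal proteins exist as paralog pairs, and the acidic proteins P0, P1 and P2 form the stalk on which elongation factors act.

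The plates held 559559, 481392 and 221176 UMIs. The authors' list of analysed wells held 384, 384 and 268 wells, with medians of 1064.5, 914.5 and 382 UMIs per well, so plate 3 was the shallowest. Of the 8 pan-endothelial markers 7 were detected, at a summed 2830 ± 102 UMIs per 1000000 (CPM; SD, n = 3 plates), and etv2 was at 0. Neutrophil markers ranged from 51.9 CPM in plate 2 to 872 in plate 3, and keratinocyte markers summed to 740 ± 31.3 CPM. Each pair of plates shared all 384 well barcodes. At shared coordinates the ribosomal protein shares of plates 1 and 2 had a Pearson correlation of 0.111 over 293 wells, those of plates 1 and 3 of 0.0023 over 142, and those of plates 2 and 3 of 0.173 over 127, given as a description.

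Members held 16.98% of the UMIs of the analysed wells in plate 1, 16.12% in plate 2 and 16.03% in plate 3. The mean was 16.4% ± 0.52 (SD, n = 3), so on this total the plates lay close together despite their different depths. Next, mitochondrial rows, rows read as mitochondrial ribosomal RNA and the ribosomal RNA row zgc:158463 were left out of the total. The share was then 20.1% ± 1.22, at 21.3%, 20.02% and 18.85% in plates 1, 2 and 3, which is the order of their depths. Large-subunit genes held 9.57% ± 0.34 and small-subunit genes 6.80% ± 0.21 of all UMIs, a ratio of 1.41 ± 0.030.

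Single wells spread far more widely than plates. In wells of at least 300 UMIs, the 5th percentile, median and 95th percentile of the share were 9.08%, 16.8% and 24.6% over 336 wells of plate 1. They were 8.83%, 15.6% and 24.0% over 313 wells of plate 2, and 8.26%, 15.6% and 25.2% over 151 wells of plate 3. The SD over wells was 4.78, 4.52 and 5.48 percentage points in plates 1, 2 and 3, where binomial sampling at those depths alone would give 1.21, 1.21 and 1.46. Intervals and sampling errors of this kind cover counting error only. The spread over wells was thus between 3.74 and 3.94 times the counting error.

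Depth moved with the share only a little. In the shallow, middle and deep terciles of wells, with malat1 left out of the total, the share was 16.5%, 16.4% and 17.5% in plate 1, 15.5%, 15.6% and 16.6% in plate 2, and 15.4%, 16.0% and 17.1% in plate 3. The deep tercile was highest in each plate.

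The levels of the members were even. Their median over the 74 detected genes was 2239 CPM, with an interquartile range of 1897 to 2604 CPM, and 70 members had between 1000 and 5000 CPM. Members filled 60 of the 100 most abundant rows, and 71 of the 200 most abundant rows. The 10 leading members together held 20.5% of the ribosomal protein UMIs. Over the 74 members, levels of plates 1 and 2 had a Spearman correlation of 0.965, those of plates 1 and 3 of 0.924 and those of plates 2 and 3 of 0.932. These are descriptions across genes counted in the same libraries.

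The leading member was rplp0, the scaffold protein of the stalk, with 4621, 4096 and 3705 CPM in plates 1, 2 and 3, the highest of all members in each plate. The stalk protein gene rplp1 had 3721, 3899 and 3539 CPM, and rplp2l, one of the paired genes for the stalk protein P2, 3101, 3114 and 2715 CPM. Stalk genes therefore took 3 of the first 8 places.

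From the small subunit, rps2 had 4101, 3608 and 3691 CPM, and rps20 had 3245, 3162 and 3088 CPM. The level of rps27a, whose product is made as a fusion with ubiquitin, was the steadiest of the leading members, at 3522, 3509 and 3490 CPM. From the large subunit came rpl13a at 3340 ± 129 CPM, rpl15 at 3158 ± 277, rpl6 at 2903 ± 78.8 and rpl19 at 2888 ± 86.4 (SD, n = 3 plates). Below rps27a, which was in place 4 in each plate, the order changed between plates: rplp2l was in place 7 in plates 1 and 2 and in place 16 in plate 3.

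At the low end, rpl5a averaged 1201 ± 58.7 CPM, rps21 1066 ± 14.6, rps26 886 ± 63.9 and rpl22l1 406 ± 49.2 (SD, n = 3 plates). The level of rpl7l1, at 28.6, 39.5 and 90.0 CPM, was well below every other member found in all plates, and it rested on 48 UMIs. The gene rps8b had 1 UMI, in plate 2. No UMI was counted for rpl28, rps19 or rps27.2 in any well. A count of 0 allows up to 2.53 CPM over the wells analysed (3 counts per total). That bound covers counting error only. The annotation and the handling of reads that match several genes are not stated, so these counts do not show that the mRNAs were absent.

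**Figure D1:**
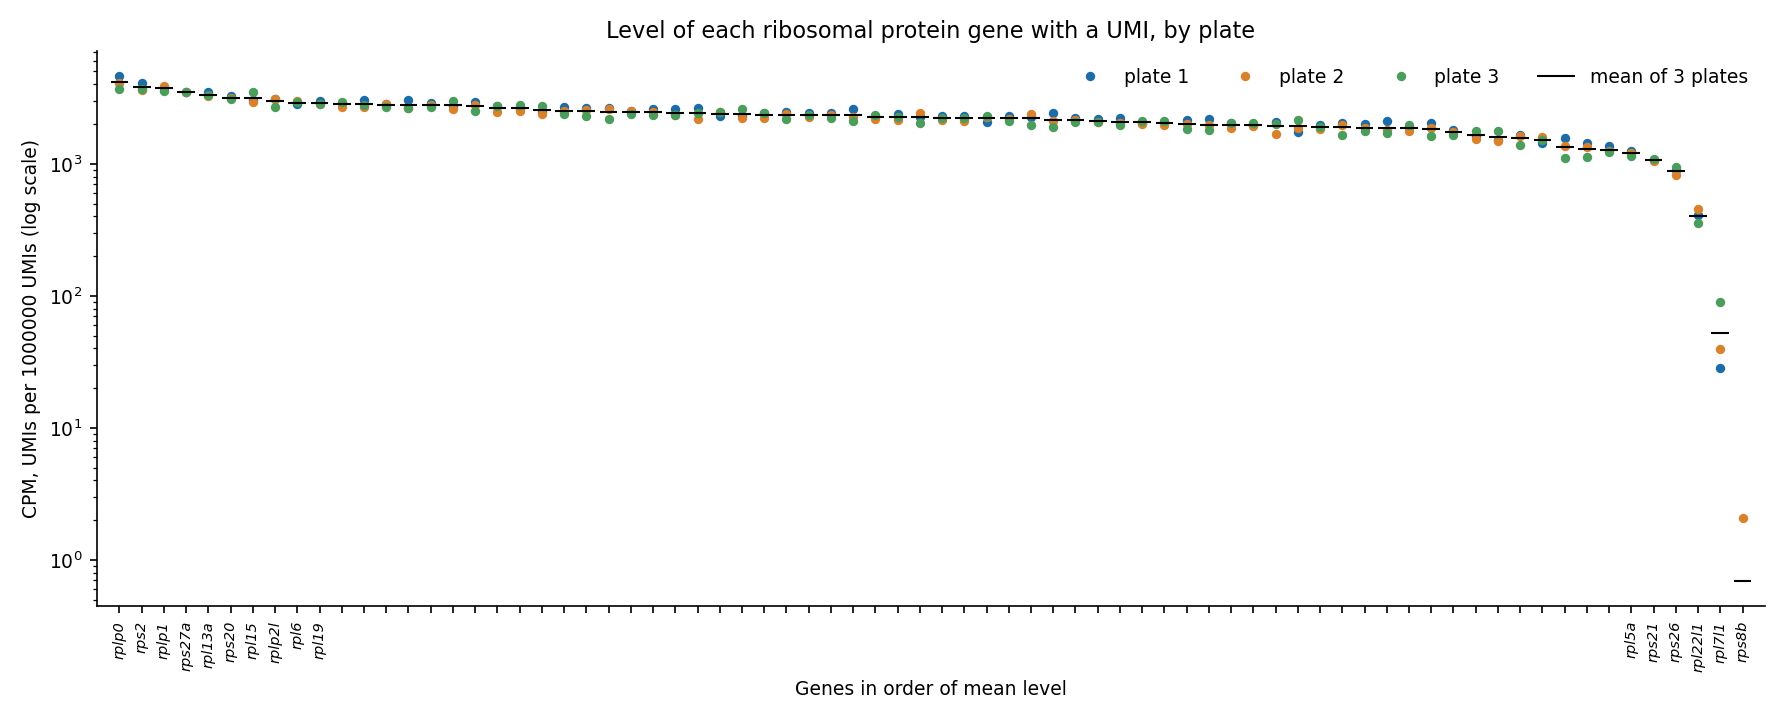
Level of each of the 74 detected ribosomal protein genes in UMIs per 1000000 UMIs on a log scale, with 1 point per plate and a bar at the mean of the 3 plates, ordered by mean, and names printed for both ends of the order. Most genes lie between 1000 and 5000 CPM, and only rps26, rpl22l1, rpl7l1 and rps8b average below 1000; a plate without a UMI of a gene has no point.

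Several ribosomal protein genes stand in the tables under names that the rule did not take. The row si:dkey-151g10.6, a synonym of rpl41 in RefSeq, had 5920 ± 467 CPM and so exceeded every member. The rows RPL37A and RPL29 had 2501 ± 13.1 and 1477 ± 73.3 CPM. These 3 rows were looked up after the tables had been seen. The fusion gene faua, whose product yields a small-subunit protein, had 1866 ± 106 CPM, and its paralog faub 23.8 ± 9.64 CPM.

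Of the 77 members, 14 form 7 paralog pairs by name. How reads that match both paralogs were counted is not given in the sources used here, so the division within a pair is uncertain where their 3′ ends are alike. The pairs ran from even to fully one-sided. The genes rpl5a and rpl5b, for a protein that binds 5S ribosomal RNA, were used about equally: rpl5a held 44.7%, 46.7% and 50.6% of the pair in plates 1, 2 and 3. In the stalk pair rplp2 held 38.0%, 36.2% and 41.8%, and rplp2l the larger remainder. In the pair of rps26 and rps26l, rps26 held 35.6%, 34.6% and 34.8%, the steadiest division of the mixed pairs, at a mean of 35.0% ± 0.53 (SD, n = 3).

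The gene rpl22 held 78.6%, 76.7% and 83.3% of its pair with rpl22l1. In zebrafish embryos both act in the formation of blood stem cells. The remaining pairs had 1 dominant member: rpl7 held 97.7% ± 1.39 against rpl7l1, rps8a had 3126 UMIs against 1 of rps8b, and rps27.1 had 2655 UMIs against 0 of rps27.2.

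Paralogs of the mixed pairs were found together in part of the wells of at least 300 UMIs. Both rplp2 and rplp2l had a UMI in 254 of 336 wells of plate 1, 235 of 313 of plate 2 and 87 of 151 of plate 3. Both rpl5a and rpl5b had one in 210, 180 and 49 of these wells, and both rps26 and rps26l in 178, 151 and 52. Both rpl22 and rpl22l1 were seen in 114, 102 and 23 wells. These counts depend on depth and were not set against the number that separate detection of the paralogs would give. No wells are marked as empty, so free RNA as a source of UMIs could not be measured.

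Single members varied little more between wells than random sampling of molecules does. With each well thinned to 300 UMIs, 61 members had a mean of at least 0.5 UMI, and their variance over mean had a median of 1.11, where Poisson sampling gives 1. The lowest was rpl9 at 0.957 and the highest rpl15 at 1.25, for which plates 1, 2 and 3 gave 1.02, 1.28 and 1.46. Other genes with a mean of at least 0.5 UMI numbered 36 without mitochondrial and ribosomal RNA rows, and some had higher means than any member. Their median was 1.19, and the highest was the aquaporin gene aqp8a.1 at 6.79.

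The sum over members exceeded random sampling by a larger factor than single members did at their low counts. In the thinned wells the members had 49.8, 47.3 and 46.8 UMIs of 300 on average in plates 1, 2 and 3. The variance of that sum was 5.24, 5.47 and 7.32 times the binomial variance. The members therefore varied together across wells, by amounts that single genes at these counts did not show. Each thinned well has a fixed total, so other abundant rows can also move the members together. The row AC024175.4, read as mitochondrial ribosomal RNA, had a mean of 33.0 UMIs and a variance over mean of 8.81. The part of such rows was not tested.

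**Figure D2:**
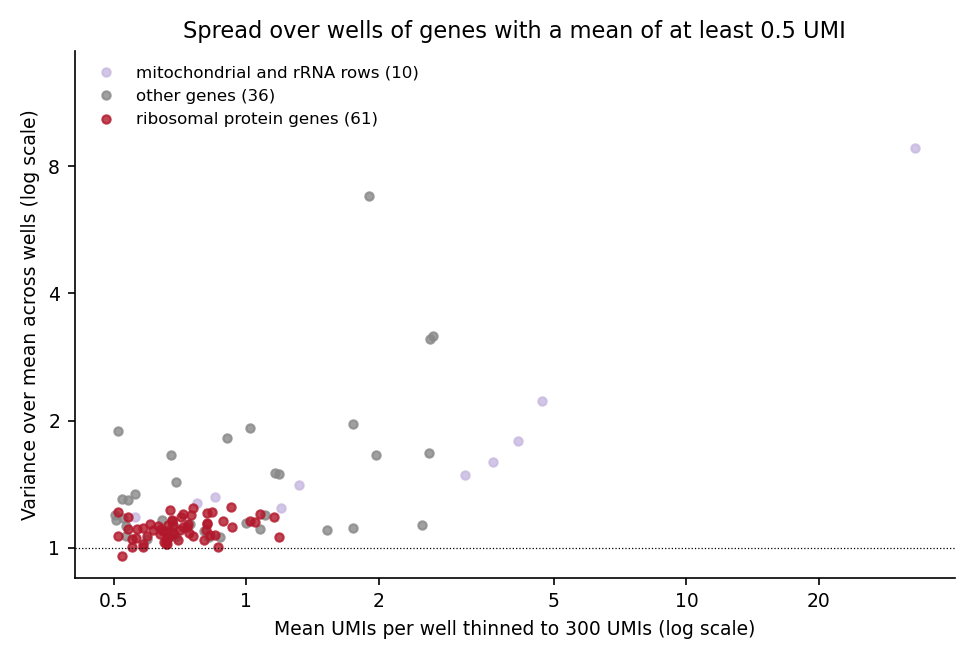
Variance over mean of UMIs across wells thinned to 300 UMIs, against the mean, both on log scales, for genes with a mean of at least 0.5 UMI. The 61 ribosomal protein genes lie between 0.957 and 1.25, close to the Poisson value of 1 (dotted line), while other genes reach 6.79 and mitochondrial and ribosomal RNA rows 8.81.

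The first comparison asked whether ribosomal protein mRNA differed between blood-vessel-type and lymphatic-type wells. Wells with at least 5 UMIs of aqp8a.1, an aquaporin gene, and none of lyve1a (76, 77 and 21 wells in plates 1, 2 and 3) were set against wells with a UMI of lyve1a, a lymphatic endothelial marker, and fewer than 5 of aqp8a.1 (108, 88 and 36 wells). Wells positive for both (42, 50 and 11) were left out. Only 26, 33 and 17 of the lyve1a-positive wells had 0 aqp8a.1 UMIs, so most wells of that class also held some aqp8a.1. The other markers followed the classes. Summed over 7 lymphatic markers other than lyve1a, levels were 808 ± 140 CPM in aqp8a.1-high wells and 2867 ± 557 CPM in lyve1a-positive wells. The 4 blood endothelial markers other than aqp8a.1 summed to 2581 ± 645 CPM in aqp8a.1-high wells and 563 ± 87.5 CPM in lyve1a-positive wells (SD, n = 3 plates).

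No ribosomal protein gene was called between these classes. The share was 17.24%, 15.35% and 14.47% in the aqp8a.1-high wells of plates 1, 2 and 3, against 17.54%, 16.71% and 15.17% in the lyve1a-positive wells. The aqp8a.1-high wells were lower in each plate, with differences of -0.30, -1.36 and -0.70 percentage points, and the ranges of the classes overlap. With mitochondrial and ribosomal RNA rows left out of the total, the difference was positive in plate 1, at 0.27 percentage points, and negative in plates 2 and 3, at -1.77 and -0.59. With 3 plates an exact paired permutation test could not give a two-sided p below 0.25, so none was run.

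In edgeR's quasi-likelihood test on UMIs summed per plate and class, with plate as a block, 141 of 1505 genes were called at an adjusted p under 0.05 (9.37%), 84 higher in aqp8a.1-high wells (5.58%) and 57 lower (3.79%). Of the 72 members tested 0 were called, and 0 had an unadjusted p under 0.05, which 18.5% of all genes tested had. DESeq2 called 0 of the 72 members and 42 of the 1505 genes (2.79%). The lowest adjusted p of a member was 0.297 (edgeR). The median log2 fold change of the members, aqp8a.1-high over lyve1a-positive, was -0.03, and that of all genes tested was -0.001. For 69 of the 72 members the 95% interval of the fold change stayed within 1.5-fold in both directions. These intervals rest on an error pooled over all genes tested and leave out each gene's own spread over plates. Under that pooled error, differences of that size could be bounded for most members but not for all.

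The member with the lowest fold change was rpl22l1. Its level was 313, 382 and 198 CPM in aqp8a.1-high wells, against 470, 542 and 339 CPM in lyve1a-positive wells. It was the lower value in each plate, the ranges overlapped, and the test did not pass (log2 -0.52, SE 0.28, adjusted p = 0.297, edgeR).

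Only 2 members, rpl35a and rps26, had plate ranges that did not overlap, both lower in aqp8a.1-high wells, as in 10.3% of all genes tested. The leading member rplp0 had 4464, 3776 and 3074 CPM in aqp8a.1-high wells, against 4773, 4385 and 3322 CPM in lyve1a-positive wells. Its level was lower in each plate, and the test did not pass (log2 -0.11, SE 0.13, adjusted p = 0.783, edgeR). None of the genes tested from fixed lists was called: 16 from the initiation list, 10 from the elongation list, 2 ribosomal protein fusion genes and 4 ribosome biogenesis genes.

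In the mixed pairs, the order of the classes was the same in each plate for the rpl22, rps26 and rplp2 parts. It changed between plates for the rpl5a part. The rpl22 part of its pair was 83.5%, 79.6% and 87.5% in aqp8a.1-high wells, against 76.2%, 72.7% and 81.8% in lyve1a-positive wells. It was higher in aqp8a.1-high wells in each plate, with overlapping ranges, and rested on 80 UMIs of rpl22l1 in aqp8a.1-high wells and 168 in lyve1a-positive wells. The rps26 part was 33.2%, 32.3% and 36.2% in aqp8a.1-high wells, against 37.2%, 38.6% and 38.3% in lyve1a-positive wells. Its ranges did not overlap, while the exact 95% intervals of the classes overlapped within each plate. The rpl5a part was 51.4%, 42.3% and 51.2% in aqp8a.1-high wells, against 40.5%, 45.3% and 49.2% in lyve1a-positive wells. Its exact 95% intervals did not overlap in plate 1, at 46.1 to 56.7% in aqp8a.1-high wells and 36.3 to 44.8% in lyve1a-positive wells, and in plate 2 the order was the opposite. The rplp2 part was 40.1%, 35.2% and 41.1% in aqp8a.1-high wells, against 37.6%, 35.0% and 39.7% in lyve1a-positive wells, with overlapping intervals within each plate. Divisions were described and not tested.

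Markers of other cell types were not even between these classes. Neutrophil markers summed to 58.4, 9.67 and 97.5 CPM in the aqp8a.1-high wells of plates 1, 2 and 3, against 75.4, 0 and 1722 CPM in the lyve1a-positive wells. Red cell markers summed to 959, 319 and 97.5 CPM in aqp8a.1-high wells, against 37.7, 183 and 0 CPM in lyve1a-positive wells. Without wells that held a UMI of neutrophil, macrophage, red cell, fibroblast or muscle markers, 0 members were called, against 6.94% of all genes tested. Here and below, wells with other cell types' markers means wells with a UMI of these markers. Keratinocyte markers were not among them, so wells with those markers could stay in.

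**Figure D3:**
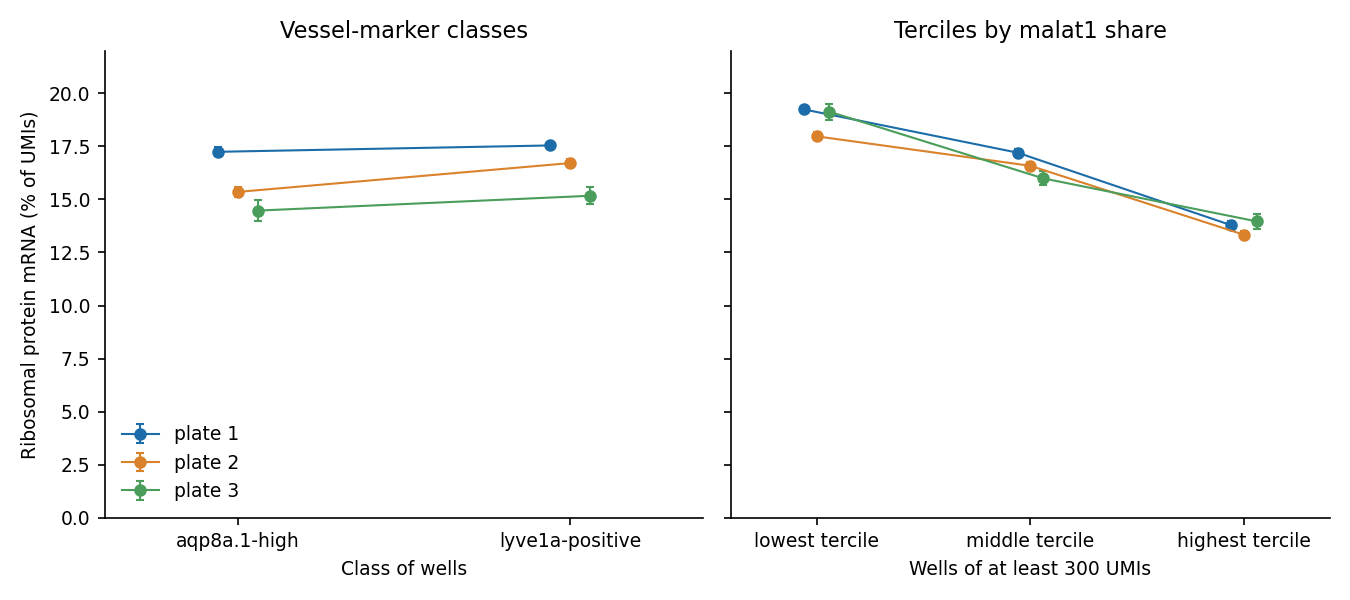
Ribosomal protein share of UMIs in percent, with 1 line per plate and exact 95% binomial intervals as bars. Left, aqp8a.1-high and lyve1a-positive wells lie at 14.5 to 17.2% and 15.2 to 17.5%; right, terciles of wells by malat1 share descend in each plate from 18.0 to 19.2% in the lowest tercile to 13.3 to 14.0% in the highest.

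The second comparison followed the share of malat1, a long noncoding RNA that is kept in the nucleus. Wells of at least 300 UMIs were divided within each plate into terciles by their malat1 share: 112, 105 and 51 wells in the lowest tercile and 112, 104 and 50 wells in each of the others. The malat1 share averaged 0.153%, 0.615% and 1.79% in the lowest, middle and highest tercile. In each plate the lowest tercile had a median of 1 malat1 UMI per well, and 49, 32 and 10 of its wells had 0. In the ribosomal protein shares of these terciles, the gene levels and the tests, malat1 was left out of the totals, so that its own UMIs do not lower the other genes; marker sums, mitochondrial shares and depths are over all UMIs.

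Ribosomal protein mRNA was lower in wells richer in malat1, step by step and in each plate. The share in the lowest, middle and highest tercile was 19.24%, 17.20% and 13.78% in plate 1. It was 17.97%, 16.58% and 13.33% in plate 2, and 19.13%, 15.99% and 13.96% in plate 3. The highest tercile minus the lowest was -5.46, -4.64 and -5.17 percentage points in plates 1, 2 and 3, a mean difference of -5.09 ± 0.42 (SD, n = 3), and the ranges of these terciles did not overlap. Over single wells, the ribosomal protein and malat1 shares had Pearson correlations of -0.444, -0.423 and -0.258 (336, 313 and 151 wells). These points share their well's total UMIs, and the correlation is a description. A share is relative, so less ribosomal protein mRNA and more of the other mRNA in a well cannot be told apart.

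The same order held within the vessel classes. Among aqp8a.1-high wells the share was 14.5%, 13.3% and 13.1% in the malat1-rich tercile of plates 1, 2 and 3, against 19.7%, 17.5% and 17.7% in the malat1-poor tercile. Among lyve1a-positive wells it was 14.5%, 14.9% and 14.4% in the malat1-rich tercile, against 19.0%, 18.4% and 17.4% in the malat1-poor tercile. Wells outside both classes had 12.0%, 12.0% and 14.6% in the malat1-rich tercile, against 19.9%, 17.8% and 19.5% in the malat1-poor tercile. Malat1-rich wells lay below malat1-poor wells in each of these 9 pairs, although plate 3 had only 9 malat1-rich and 5 malat1-poor wells among its aqp8a.1-high wells.

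In edgeR's test 624 of 2202 genes were called between the highest and the lowest tercile (28.3%), 334 higher in malat1-rich wells (15.2%) and 290 lower (13.2%). Of the 72 members tested 71 were called lower and 0 higher, and the estimates of all 72 were negative. All 30 small-subunit members tested were called lower, and their median log2 fold change was -0.64. Of the 42 large-subunit members tested 41 were called lower, and the median of the 42 was -0.61. The median over the 72 members was -0.62, with quartiles of -0.67 and -0.56, and that of all genes tested -0.01. Plate ranges did not overlap for 64 members, as for 13.1% of all genes tested in that direction.

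These fold changes are relative to the bulk of genes, because edgeR scaled the sums by TMM. With library totals alone, the median of all genes was 0.20 and that of the members -0.40, with 65 members called lower (7.81% of all genes) and 0 higher. The calls over all genes were then 459 higher and 172 lower. The members lay 0.65 below the other genes on the log2 scale under TMM and 0.64 below under library totals. For this reason the CPM values printed here, which are scaled by library totals, differ between terciles by less than the fitted fold changes beside them.

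The falls were alike in size. Of the 72 members 69 had a log2 fold change between -0.80 and -0.40, and 71 had the mean level of the middle tercile between those of the outer terciles. Within single plates the middle tercile lay between for 67, 64 and 50 members in plates 1, 2 and 3, and for 39 of the 72 in all 3 plates. The leading gene rplp0 had 3866, 3345 and 3553 CPM in malat1-rich wells, against 5464, 4617 and 4299 CPM in malat1-poor wells (log2 -0.58, SE 0.09, adjusted p = 9.56e-06, edgeR). For rps2 the levels were 3279, 3284 and 3269 CPM in malat1-rich wells, against 4622, 4038 and 4819 CPM in malat1-poor wells (log2 -0.59, SE 0.10, adjusted p = 2.48e-05, edgeR). The ubiquitin fusion gene rps27a had 2852, 3114 and 2558 CPM in malat1-rich wells, against 4007, 3706 and 4412 CPM in malat1-poor wells. In each of these genes every malat1-rich sum lay below every malat1-poor sum.

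Among the 10 largest falls of called members were those of rpl22l1, rps12, rps3, rpl27, rps29, rps14, rps3a, rps15 and rpl10a. The level of rpl22l1 fell to 301, 224 and 256 CPM in malat1-rich wells, against 563, 585 and 452 CPM in malat1-poor wells (log2 -1.21, SE 0.24, adjusted p = 0.000162, edgeR). It rested on 81 UMIs in malat1-rich and 243 in malat1-poor wells and had the widest error of the members, and without plate 2 it no longer passed (log2 -0.93, adjusted p = 0.0548, edgeR). The small-subunit gene rps12 fell to 1992, 1916 and 1848 CPM in malat1-rich wells, against 3132, 2969 and 2964 CPM in malat1-poor wells (log2 -0.80, SE 0.10, adjusted p = 7.31e-07, edgeR).

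The other 7 of these had log2 fold changes from -0.77 to -0.71, and in 6 of the 7 the plate ranges did not overlap. The gene rps3, whose protein lies where mRNA enters the ribosome, had 1685, 1584 and 1706 CPM in malat1-rich wells, against 2399, 2334 and 3145 CPM in malat1-poor wells. The large-subunit gene rpl27 had 1433, 1406 and 1649 CPM in malat1-rich wells, against 2484, 2075 and 2104 CPM in malat1-poor wells. For rpl10a, whose protein forms the L1 stalk through which spent transfer RNA leaves, levels were 1559, 1623 and 1734 CPM in malat1-rich wells, against 2389, 2289 and 2557 CPM in malat1-poor wells. For rps29 the ranges overlapped, since plate 3 had 2274 CPM in malat1-rich and 2376 CPM in malat1-poor wells, and the gene no longer passed without plate 2 (log2 -0.48, adjusted p = 0.0622, edgeR) or without wells that held other cell types' markers (log2 -0.35, adjusted p = 0.0706, edgeR).

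The only tested member not called was the stalk gene rplp2. Its level was 1825, 1630 and 1819 CPM in malat1-rich wells, against 2011, 1738 and 1946 CPM in malat1-poor wells, lower in each plate with overlapping ranges (log2 -0.26, SE 0.11, adjusted p = 0.078, edgeR). Without plate 3 it was called as well (log2 -0.31, adjusted p = 0.0322, edgeR). Its paralog rplp2l fell to 2531, 2480 and 2331 CPM in malat1-rich wells, against 3638, 3425 and 3032 CPM in malat1-poor wells (log2 -0.62, SE 0.10, adjusted p = 1.22e-05, edgeR). In the lowest, middle and highest tercile rplp2 held 35.6%, 38.1% and 41.9% of the pair in plate 1, 33.7%, 36.2% and 39.7% in plate 2, and 39.1%, 41.3% and 43.8% in plate 3. The rplp2 part was higher at each step in each plate. Within each plate the intervals overlapped between neighbouring terciles and also between the lowest and the highest tercile.

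In the pair of rpl22 and rpl22l1 both genes fell, rpl22 by an estimated log2 -0.46 (SE 0.12, adjusted p = 0.00469, edgeR), and the difference between the 2 falls was not tested. The gene rpl22 no longer passed without plate 1 (log2 -0.36, adjusted p = 0.149), without plate 2 (log2 -0.43, adjusted p = 0.105) or with library totals alone (log2 -0.24, adjusted p = 0.122). It also did not pass with DESeq2 (log2 -0.45, adjusted p = 0.0562) or without wells that held other cell types' markers (log2 -0.32, adjusted p = 0.129). In the lowest, middle and highest tercile rpl22 held 74.7%, 82.2% and 80.8% of the pair in plate 1, 72.9%, 75.0% and 85.9% in plate 2, and 81.8%, 81.9% and 86.4% in plate 3. The highest tercile exceeded the lowest in each plate, and the middle tercile did not keep to one place in the order. The gene rpl5a held 44.6% ± 3.60 of its pair in malat1-rich wells and 47.9% ± 2.54 in malat1-poor wells, and rps26 held 35.5% ± 4.44 of its pair in malat1-rich wells and 35.7% ± 2.97 in malat1-poor wells (SD, n = 3 plates). The rpl5a part was lower in malat1-rich wells in each plate, at 40.7%, 45.4% and 47.8% in malat1-rich wells, against 46.1%, 46.8% and 50.8% in malat1-poor wells, with overlapping intervals within each plate. The rps26 part was higher in malat1-rich wells in plate 1 and lower in plates 2 and 3.

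**Figure D4:**
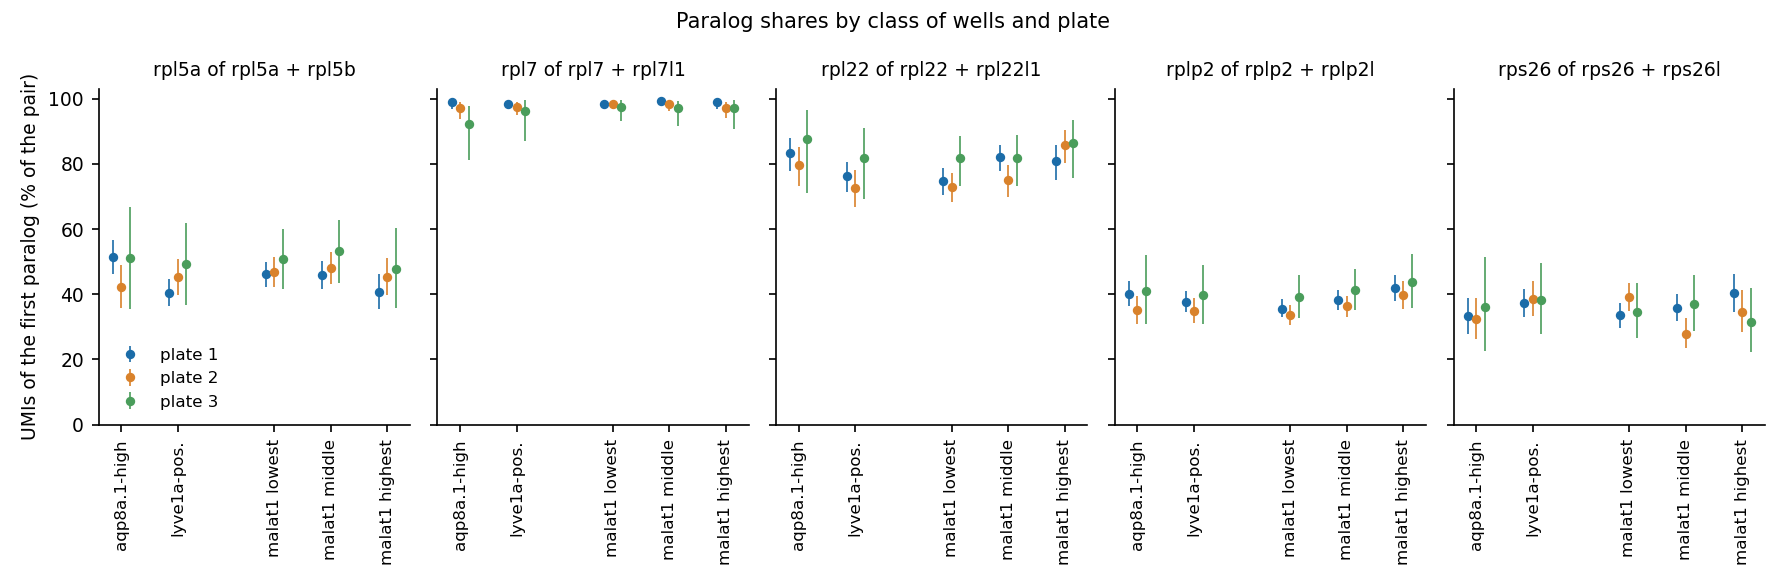
Percentage of a pair's UMIs that belong to its first paralog, in aqp8a.1-high and lyve1a-positive wells and in terciles by malat1 share, with 1 point per plate and exact 95% binomial intervals. The rplp2 part lies between 33.7 and 43.8% in the terciles and is higher at each step in each plate, with overlapping intervals. The rpl7 part is 92.2% or more throughout.

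Tested ribosomal protein genes outside the name rule also fell. The row si:dkey-151g10.6 fell to 4852, 4713 and 5117 CPM in malat1-rich wells, against 7129, 7063 and 6313 CPM in malat1-poor wells (log2 -0.65, SE 0.08, adjusted p = 7.31e-07, edgeR). The fusion gene faua (log2 -0.39, SE 0.12, adjusted p = 0.0115, edgeR) also fell, as did RPL37A (log2 -0.48, adjusted p = 0.00112) and RPL29 (log2 -0.51, adjusted p = 0.00269). Some of these calls rested on all 3 plates. Without plate 1, faua (log2 -0.29, adjusted p = 0.239) no longer passed. Without plate 2, faua (log2 -0.26, adjusted p = 0.315) and RPL29 (log2 -0.39, adjusted p = 0.181) did not. With library totals alone, faua, RPL37A and RPL29 did not pass, with DESeq2 faua did not (log2 -0.37, adjusted p = 0.12), and without wells that held other cell types' markers faua (log2 -0.22, adjusted p = 0.236) and RPL29 (log2 -0.35, adjusted p = 0.0948) did not. The gene faub was too low to be tested, with 27.96, 15.45 and 28.43 CPM in malat1-rich wells, against 9.46, 22.5 and 0 CPM in malat1-poor wells.

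Other genes of translation were called lower in part, and none of the genes tested from these lists was called higher. Of 10 elongation and nascent-chain genes 6 were called lower, against 13.2% of all genes tested. Called lower were eef1a1l1 and eef2b, for the factors that deliver aminoacyl-tRNA and move the ribosome on. The same held for eef1b2 and eef1g, for subunits of the exchange factor, and tpt1 and gnb2l1, whose product RACK1 sits on the small subunit. The level of eef1a1l1 was 7648, 7332 and 6595 CPM in malat1-rich wells, against 10160, 9673 and 10270 CPM in malat1-poor wells (log2 -0.62, SE 0.08, adjusted p = 7.31e-07, edgeR). For gnb2l1 it was 1944, 1901 and 1507 CPM in malat1-rich wells, against 2853, 2677 and 3213 CPM in malat1-poor wells. The nascent-chain genes naca and btf3 did not pass, at log2 -0.32 and -0.16. The call of eef2b was lost without plate 1 (log2 -0.32, adjusted p = 0.0926) and without plate 2 (log2 -0.38, adjusted p = 0.0561), and that of tpt1 without plate 2 (log2 -0.34, adjusted p = 0.083). With library totals alone, or without wells that held other cell types' markers, eef2b and tpt1 did not pass.

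Of 19 genes tested from the initiation list 3 were called lower, a share near the 13.2% of all genes tested. They were eif5a (log2 -0.78), the poly(A)-binding protein gene pabpc1a (log2 -0.73) and eif3ba (log2 -0.79). Of 5 ribosome biogenesis genes tested, too few to set against that 13.2%, 2 were called lower. They were the nucleolar protein genes npm1a (log2 -1.59, SE 0.44, on 15 UMIs in malat1-rich and 58 in malat1-poor wells) and ncl (log2 -0.92, SE 0.33). Without plate 1, eif3ba (log2 -0.96), npm1a (log2 -1.30) and ncl (log2 -1.21) no longer passed. Without plate 2, eif3ba (log2 -0.66) and ncl (log2 -0.76) did not, and without plate 3 ncl (log2 -0.80) did not. With library totals alone, eif3ba and ncl did not pass, and with DESeq2 eif3ba (log2 -0.82, adjusted p = 0.0783), npm1a (log2 -1.74, adjusted p = 0.0724) and ncl (log2 -0.98, adjusted p = 0.14) did not. Without wells that held other cell types' markers, eif3ba (log2 -0.55) and ncl (log2 -0.67) did not pass. Of 65 mitochondrial ribosome rows 1 passed the filter on low counts, and it was not called.

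Cell type markers, depth and mitochondrial genes differed between the terciles, some of them not in the same direction in each plate. Blood endothelial markers summed to 1536, 1880 and 1665 CPM in malat1-rich wells, against 596, 899 and 1128 CPM in malat1-poor wells. Lymphatic markers summed to 1832, 1621 and 2441 CPM in malat1-rich wells, against 1276, 1556 and 1106 CPM in malat1-poor wells. In both sets the plate ranges did not overlap. Pan-endothelial markers summed to 3769 ± 219 CPM in malat1-rich wells and 2077 ± 213 CPM in malat1-poor wells (SD, n = 3 plates). Neutrophil markers, all 5 of 5 detected, summed to 75.8, 91.3 and 139 CPM in malat1-rich wells, against 1276, 67.4 and 1760 CPM in malat1-poor wells, so that they were lower in malat1-rich wells of plates 1 and 3 and higher in those of plate 2. Keratinocyte markers, with 4 of 6 detected in malat1-rich wells and 5 of 6 in malat1-poor wells, summed to 931 ± 87.5 CPM in malat1-rich wells and 578.5 ± 127 CPM in malat1-poor wells. Red cell markers summed to 765, 304 and 83.2 CPM in malat1-rich wells, against 23.6, 298 and 158 CPM in malat1-poor wells. For macrophage markers the sums were 13.8, 30.4 and 83.2 CPM in malat1-rich wells, with 2 of 6 detected and mpeg1.1, marco, c1qb and cd74a at 0, against 52.0, 61.8 and 767 CPM in malat1-poor wells, with marco at 0. Fibroblast markers summed to 71.2 ± 10.9 CPM in malat1-rich wells and 323 ± 463 CPM in malat1-poor wells.

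Without wells that held a UMI of the neutrophil, macrophage, red cell, fibroblast or muscle markers, the median of the members was -0.47. All 72 estimates were negative, and 59 of 72 members were called lower, against 12.9% of all genes. Mitochondrial genes held 4.26% ± 0.20 of UMIs in malat1-rich wells and 5.33% ± 0.35 in malat1-poor wells. Median depth was 1015, 1112 and 642 UMIs in malat1-rich wells, against 1514.5, 1193 and 640 in malat1-poor wells, so that it differed most in plate 1. With terciles formed within depth bins, all 72 members tested were called lower (10.4% of all genes), with a median of -0.58. The part of these other measures in the fall of the members was not tested. Among wells outside both vessel classes 12 of 72 members passed the test (6.92% of the 520 genes tested there), and with wells thinned to 300 UMIs 2 of 72 did (1.25% of 479).

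**Figure D5:**
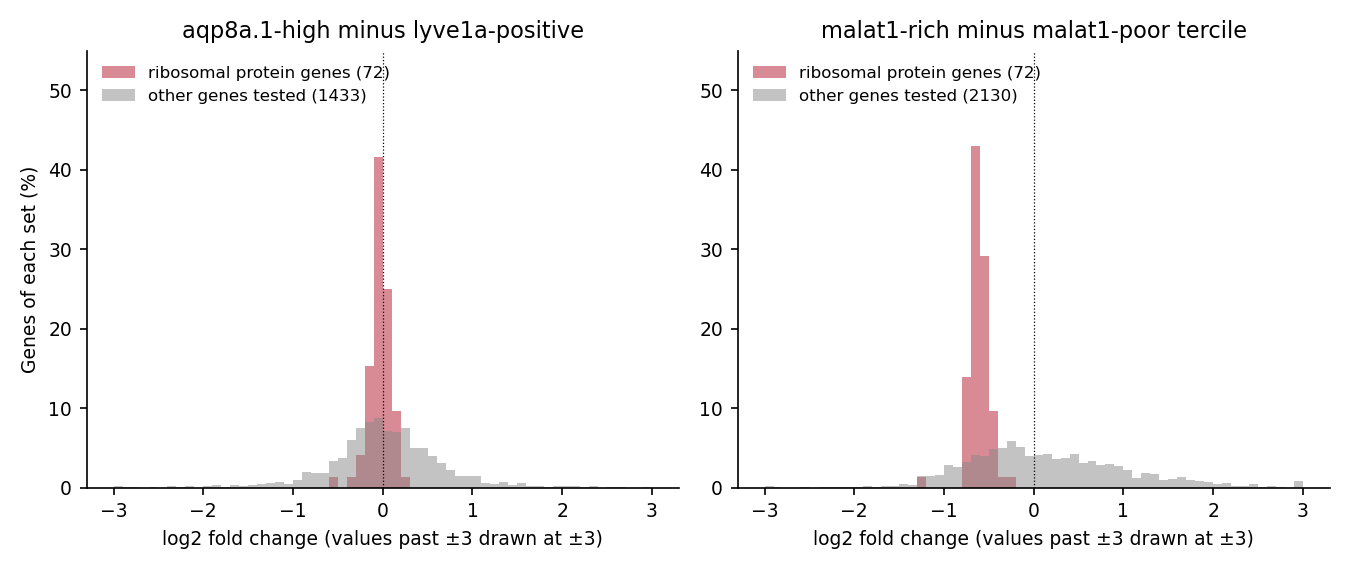
Distribution of log2 fold changes in edgeR for the 72 ribosomal protein genes tested and the other genes tested, as a percentage of each set. In aqp8a.1-high over lyve1a-positive wells both sets centre near 0, and in malat1-rich over malat1-poor wells the ribosomal protein genes form a narrow peak with a median of -0.62, while other genes centre at 0.03.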

How the data were processed

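Per the labels' protocols, cells were sorted into plates and MARS-seq libraries were made. The authors deposited 1 table of UMI counts per plate, without normalization, and a list of analysed wells. Bowtie2 and GRCz10 appear in the submitters' processing notes. The sources used here do not state the annotation, UMI collapsing or handling of reads that match several genes. The deposited tables give all plates 1 sequencing batch.

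Listed wells were summed per plate and class. The sums were tested with edgeR 4.0.16 (R 4.3.3) under TMM, filterByExpr and the quasi-likelihood F-test, with Benjamini-Hochberg adjustment over all genes tested and plate as a block, because the classes compared come from the same sorted plates. The genes that define a class were left out of the totals of shares, gene levels and tests, and marker sums were taken over all UMIs. DESeq2 1.42.0 was an alternative. Shares have exact 95% binomial intervals, which cover counting error only. Wells were thinned with seed 1. On simulated counts with 2-fold changes, the test recovered 50% of 172 changed genes for the aqp8a.1 comparison (1505 genes) and 42.2% of 185 for the malat1 comparison (2202 genes). Named genes are the 10 leading members, paralogs, the 5 lowest, up to 10 called members per direction, and the extremes of variance over mean; some of these are not reported here. The members and lists were chosen with earlier results of these data known. No coordinates or sequences are printed, because the RefSeq table used for names follows another assembly; 76 members matched its symbols and 1 a synonym.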

Additional observations from a re-analysis of the deposited data

Results flagged for a closer look

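The 116 wells of plate 3 outside the authors' list of analysed wells also held ribosomal protein mRNA, which the comparisons above do not use. Its share was 14.86% (11409 of 76768 UMIs, exact 95% binomial interval 14.61 to 15.12%), where a count of 0 would allow up to 0.0039%. These wells had a median of 296.5 UMIs. The listed wells of the same plate had a share of 16.03% and a median of 382 UMIs.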

How the results depend on the processing

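Between aqp8a.1-high and lyve1a-positive wells, 0 members were called under any of the 15 alternatives run. All genes called numbered 141, and 42 with DESeq2, 92 with aqp8a.1-high set at 1 percent of UMIs, 26 against lyve1a-positive wells with 0 aqp8a.1 UMIs, 81 without an expression filter, 28 with wells thinned to 500 UMIs, 46 without wells holding other cell types' markers, and 44 to 118 with 1 plate left out (59 without plate 1 and 44 without plate 2). The member median of -0.03 became -0.07 with DESeq2 (-0.067), library totals (-0.072), thinning (-0.070) and without other cell types' markers (-0.070), -0.092 without a filter, 0.0097 with double wells counted as aqp8a.1-high, and -0.073 to -0.031 with 1 plate left out.

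Between malat1-rich and malat1-poor wells the member median stayed negative under all 18 alternatives run. All genes called numbered 624, and 317 with DESeq2, 133 in wells outside both vessel classes, 29 with wells thinned to 300 UMIs, 378 without wells holding other cell types' markers, and 236 to 678 with 1 plate left out (236 without plate 1 and 255 without plate 2). Members called lower numbered 71 (13.2% of all genes tested were called lower), 12 outside both classes (6.92%) and 2 after thinning (1.25%). They numbered 54 without plate 1 (7.4% of 1567 genes), 51 without plate 2 (7.29% of 1619) and 72 without plate 3 (12.3% of 2620). After thinning, 112, 104 and 22 wells of the malat1-poor terciles had 0 malat1 UMIs, so that ties formed much of that tercile. The member median of -0.62 became -0.474 over all listed wells, -0.421 with 2 equal parts, -0.403 with library totals, -0.584 with malat1 taken against UMIs outside the members, -0.567 without the middle tercile, -0.772 without a filter, -0.585 within depth bins, -0.413 outside both classes, -0.226 after thinning, -0.469 without other cell types' markers, and -0.666 to -0.528 with 1 plate left out. Estimates were negative for 70 of 72 members outside both classes and for 66 of 72 after thinning. Some of the genes with positive estimates were among those named by rule. Outside both classes rplp2 was at 0.093, and after thinning faua, which is not a member, was at 0.2246. Also after thinning, rpl10a was at 0.104, rpl5b at 0.101, rplp2 at 0.061 and rps21 at 0.031, and the cause was not tested. Both alternatives test fewer genes, 520 and 479. Calls over all genes were 334 higher and 290 lower, and 97 and 36 outside both classes and 23 and 6 after thinning.

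Without plate as a replicate block, 109 and 476 genes were called in the aqp8a.1 and malat1 comparisons, with 0 and 70 members. The 70 were all lower, against 9.76% of the 2202 genes tested. In the aqp8a.1 comparison 7.24% of the 1505 genes were called in either direction. Without mitochondrial and ribosomal RNA rows, the plate share of 16.4% became 20.06%, and the malat1 difference of -5.09 percentage points became -6.69. The plate share was 15.66% as the median well. Depth limits single genes: members of low count such as rpl22l1 have the widest errors.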
